A study of Mus musculus with 6 samples.

Results

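Desmosome, tight junction and keratin genes were followed across the embryonic mouse aorta, together with the adhesion genes and regulators of epithelia and 3 transcription factor genes of the foregut. The 38 genes were listed by name, with earlier results of these data known, and all 38 were measured, each through 1 probe set, among 19938 genes in all. They comprise 12 desmosomal genes, 4 keratins, 7 epithelial adhesion genes and regulators, 12 tight junction genes and 3 foregut markers. The clearest pattern lay in the desmosomal cadherins Dsg2, Dsc2 and Dsc3, which stood far above the descending aorta on ascending replicates 1 and 2, while the foregut markers Nkx2-1, Foxa1 and Foxa2 differed little on any array.

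The ascending and the descending aorta of untreated wild-type C57BL/6 embryos at 13.5 days postcoitum were each hybridised to 3 Affymetrix mouse gene arrays, 6 in all, to compare smooth muscle of neural crest and of mesodermal origin. Both groups share strain, genotype and age, and differ in the segment dissected. Which embryos or litters gave each array, and whether vessels were pooled, is not stated. The p-values therefore measure only how far these samples spread, which may be technical in part. Values are the authors' log2 expression after RMA, which corrects for background, gives the arrays a common distribution and combines probes into 1 value per probe set.

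Desmosomes are spot-like junctions that rivet neighbouring cells together. Desmogleins and desmocollins, both cadherins, cross the membrane and bind those of the next cell, and the plaque proteins plakoglobin, plakophilins and desmoplakin tie them to intermediate filaments, which are keratins in epithelia and desmin in heart muscle. Tight junctions, built from claudins, occludin and related proteins on a plaque of zonula occludens proteins, seal the space between epithelial or endothelial cells. Most epithelia also carry E-cadherin and Epcam, and foregut endoderm is marked by the forkhead factors Foxa1 and Foxa2 and, in its lung and thyroid parts, by Nkx2-1. Mesothelium, the cell sheet over heart, great vessels and body cavities, is an epithelium of mesodermal origin that carries keratins and desmosomes.

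The arrays of ascending aorta did not lie together. Across genes, ascending replicate 3 correlated on average at 0.9958 with the descending group and at 0.9882 with its own group (Pearson's r), so called results are given with and without it. Whether that array's label or dissection is at fault cannot be told from these data, and the 6-array ascending means and the values without it both depend on this. Array medians lay between 7.14 and 7.22. All 8 smooth muscle markers and all 10 endothelial markers had means over the arrays above that of the median gene. Both segments hold these cells, so the markers speak for vessel tissue and not for either segment. Of the 38 junction and epithelial genes, 27 had means below that of the median gene, where RMA makes differences smaller.

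Over all 6 arrays, limma called 0 of the 38 genes at a Benjamini-Hochberg adjusted p under 0.05, and 0 of all 19938 genes (0%), of which 1852 had an unadjusted p under 0.05 (9.29%). At an unadjusted p under 0.05 there were 5 of the 38, all higher in ascending aorta (Dsg2, Dsc2, Dsc3, Krt8 and Krt18), against 3.96% of all genes in that direction, and 0 lower, against 5.33%. The 3 ascending arrays lay above all 3 descending arrays for 3 of the 38 genes (5.87% of all genes) and below them for 2 (8.95% of all genes). The 14.8% of all genes whose groups did not overlap in either direction set the scale, and these 5 of 38 genes are close to it. A difference of at least 0.5 in size was found for 6 of the 38 genes (Dsg2, Dsc2, Dsc3, Dsp, Perp and Krt8) and for 3.22% of all genes. The median difference, ascending minus descending, was 0.038 over the 38 genes and -0.021 over all genes. In these whole-tissue samples, more cells of a type and more RNA per cell cannot be told apart.

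Without ascending replicate 3, 8 of the 38 genes rose at an adjusted p under 0.05 in limma (2.07% of all genes rose), and 0 fell (2.61% of all genes fell), where 4.68% of all genes were called in either direction. The 8 were Dsg2, Dsc2, Dsc3, Dsp, Ppl, Perp, Krt8 and Krt18, which are 6 of the 12 desmosomal genes and 2 of the 4 keratins. None of the 12 tight junction genes, the 7 adhesion genes and regulators or the 3 foregut markers was called. Since the left-out array was chosen for its values, the p-values and SEs of these 5 arrays are likely too small. Adjusted p for the 8 genes ran from 8.7e-05 to 0.030 there, and from 0.27 to 0.93 under all the other alternatives tried. Ascending replicates 1 and 2 both lay above all 3 descending arrays for 13 of the 38 genes (15.6% of all genes) and both below them for 4 (18.9% of all genes).

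**Figure D1:**
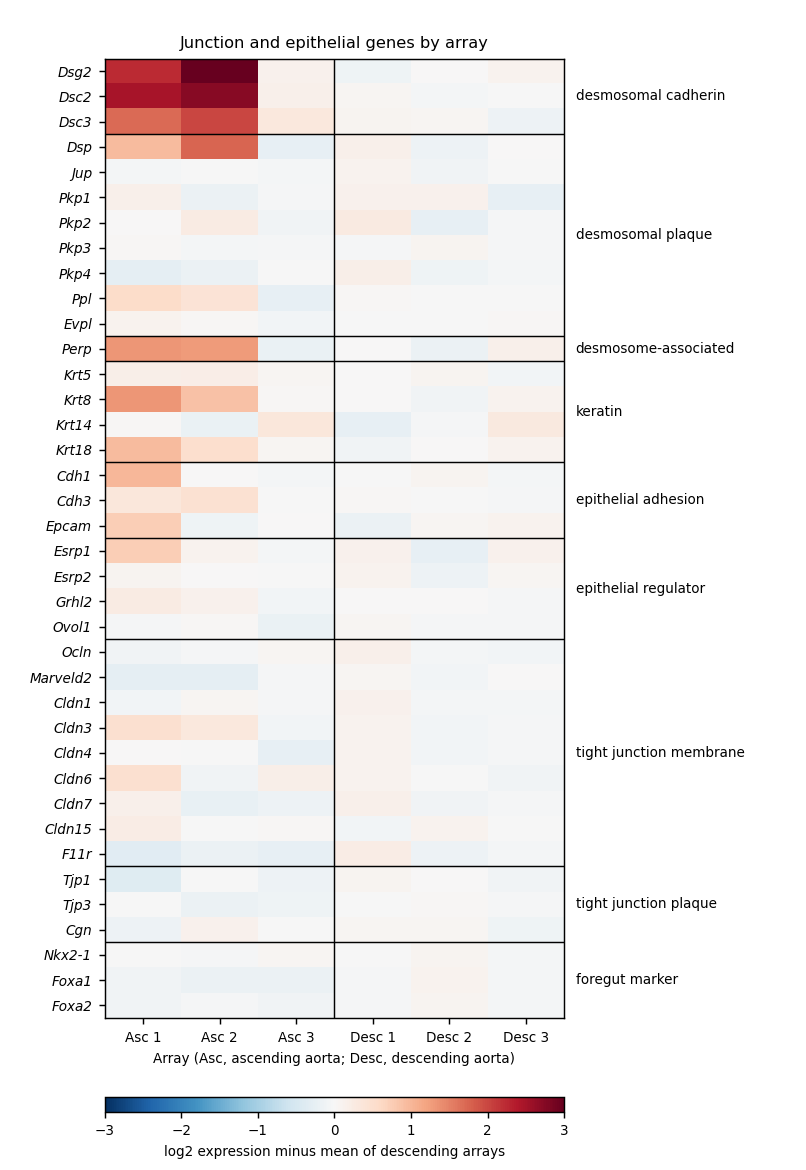
Heat map of the 38 genes (rows, grouped by role) on the 6 arrays (columns). Colour is log2 expression minus the gene's mean over the 3 descending arrays, from blue (lower) to red (higher). Red is strongest for Dsg2, Dsc2 and Dsc3 on ascending replicates 1 and 2, ascending replicate 3 is pale throughout, and Cdh1, Epcam and Esrp1 are red on ascending replicate 1 alone.

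The desmosomal cadherins held the largest differences among the 38 genes, and all 3 had means below that of the median gene. Desmoglein 2 (Dsg2, probe set 10454172), the desmoglein of simple epithelia and heart muscle, gave 8.60, 9.36 and 6.47 on ascending replicates 1, 2 and 3, and 6.23, 6.37 and 6.45 on descending replicates 1, 2 and 3. Ascending replicates 1 and 2 were high, and replicate 3 lay just above the highest descending array, so the groups did not overlap. The difference was 1.80 ± 0.64 (SE) on the log2 scale (adjusted p = 0.53 by limma, n = 3 against 3), and without ascending replicate 3 Dsg2 rose by 2.63 ± 0.20, which is 6.19-fold (adjusted p = 0.00063 by limma).

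Desmocollin 2 (Dsc2, probe set 10457686), the desmocollin found with Dsg2 in the same tissues, gave 9.02, 9.29 and 6.71 on the ascending arrays and 6.62, 6.51 and 6.55 on the descending arrays, in replicate order. Its descending arrays lay close together, and ascending replicate 3 lay just above them. The means were 8.34 ± 1.42 (SD, n = 3) and 6.56 ± 0.055 (SD, n = 3), a difference of 1.78 ± 0.60 (SE; adjusted p = 0.53 by limma). Without ascending replicate 3 Dsc2 rose 6.04-fold (2.59 ± 0.11 on the log2 scale, adjusted p = 8.7e-05 by limma).

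Desmocollin 3 (Dsc3, probe set 10457669), which is best known from stratified epithelia, gave 7.71, 8.03 and 6.34 on the ascending arrays and 6.11, 6.08 and 5.87 on the descending arrays. Here too replicates 1 and 2 were high, and replicate 3 stood above every descending array by a small margin. The difference was 1.34 ± 0.39 (SE; adjusted p = 0.53 by limma), and without ascending replicate 3 Dsc3 rose 3.61-fold (1.85 ± 0.13 on the log2 scale, adjusted p = 0.00043 by limma).

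All desmosomal cadherin genes of the mouse lie in 1 cluster on chromosome 18, in the order Dsc3, Dsc2, Dsc1, Dsg1c, Dsg1a, Dsg1b, Dsg4, Dsg3 and Dsg2 by the RefSeq annotation of GRCm38.p6. The genes that differed stand at both ends of that row. Of the inner members, mostly desmogleins of skin, Dsg1c, Dsg1b, Dsg4 and Dsg3 were measured and differed by 0.24, 0.02, -0.06 and -0.02 on the log2 scale over all arrays, and by 0.29, -0.18, -0.03 and -0.08 without ascending replicate 3. Dsg3 differed by 0.012 after repeated quantile normalization, so its sign is not settled. Cdh2, the N-cadherin gene next to Dsc3, differed by -0.14. Dsc1 and Dsg1a were not analysed here.

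Plaque genes were divided. Desmoplakin (Dsp, probe set 10404649), which anchors intermediate filaments in every desmosome, gave 9.27, 10.08 and 8.08 on the ascending arrays and 8.46, 8.18 and 8.32 on the descending arrays. Replicate 2 was the highest, and replicate 3 was the lowest of all 6 arrays, so the groups overlapped. The difference was 0.82 ± 0.43 (SE; adjusted p = 0.57 by limma), and without ascending replicate 3 Dsp rose 2.56-fold (1.35 ± 0.21, adjusted p = 0.013 by limma).

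Plakoglobin (Jup, probe set 10391103), the plaque protein that desmosomes share with adherens junctions, gave 11.43, 11.45 and 11.41 on the ascending arrays and 11.59, 11.37 and 11.47 on the descending arrays. It was described in full after its values were seen, because desmosomes contain it together with Dsp. Its difference was -0.045 ± 0.083 (SE), and it was -0.035 ± 0.10 without ascending replicate 3, with no gap between the groups. Of the plakophilins, which lie beside plakoglobin in the plaque, Pkp1, Pkp2 and Pkp3 differed by -0.020, 0.050 and -0.022. Pkp4, also a protein of adherens junctions, differed by -0.15 ± 0.11 (SE), and by -0.21 without ascending replicate 3, with ascending replicates 1 and 2 both below all descending arrays. The signs of Pkp1 and Pkp3 turned after repeated quantile normalization.

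Of the plakins beside desmoplakin, periplakin (Ppl, probe set 10437516) gave 7.27, 7.12 and 6.46 on the ascending arrays and 6.74, 6.70 and 6.69 on the descending arrays. Its replicate 3 fell on the other side of the descending arrays from replicates 1 and 2. The difference was 0.24 ± 0.19 (SE) over all arrays, and without ascending replicate 3 Ppl rose by 0.48 ± 0.09 on the log2 scale (adjusted p = 0.027 by limma). Envoplakin (Evpl), the partner of periplakin in the cornified envelope of skin, differed by 0.018 ± 0.079. Perp (probe set 10361887), a membrane protein needed for desmosomes in stratified epithelia, gave 8.91, 8.88 and 7.39 on the ascending arrays and 7.61, 7.42 and 7.76 on the descending arrays. Replicates 1 and 2 were nearly equal and high, and replicate 3 was the lowest of the 6. Perp differed by 0.80 ± 0.38 (SE; adjusted p = 0.55 by limma) and rose 2.46-fold without ascending replicate 3 (1.30 ± 0.12, adjusted p = 0.0012 by limma).

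Over the 12 desmosomal genes the median difference was 0.14, with 8 higher and 4 lower by their means (10 and 2 after repeated quantile normalization), and without ascending replicate 3 it was 0.31. The desmosomal cadherins among the 38 genes, Dsg2, Dsc2 and Dsc3, had a median of 1.78. Dsg1c, Dsg1b, Dsg4 and Dsg3, cadherins outside the 38, differed by 0.24, 0.02, -0.06 and -0.02. The 8 plaque genes had a median of -0.00092, which was 0.0059 after median-centring and 0.039 after repeated quantile normalization. Within the plaque list, Dsp stood apart from Jup and the plakophilins in the size of its difference.

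**Figure D2:**
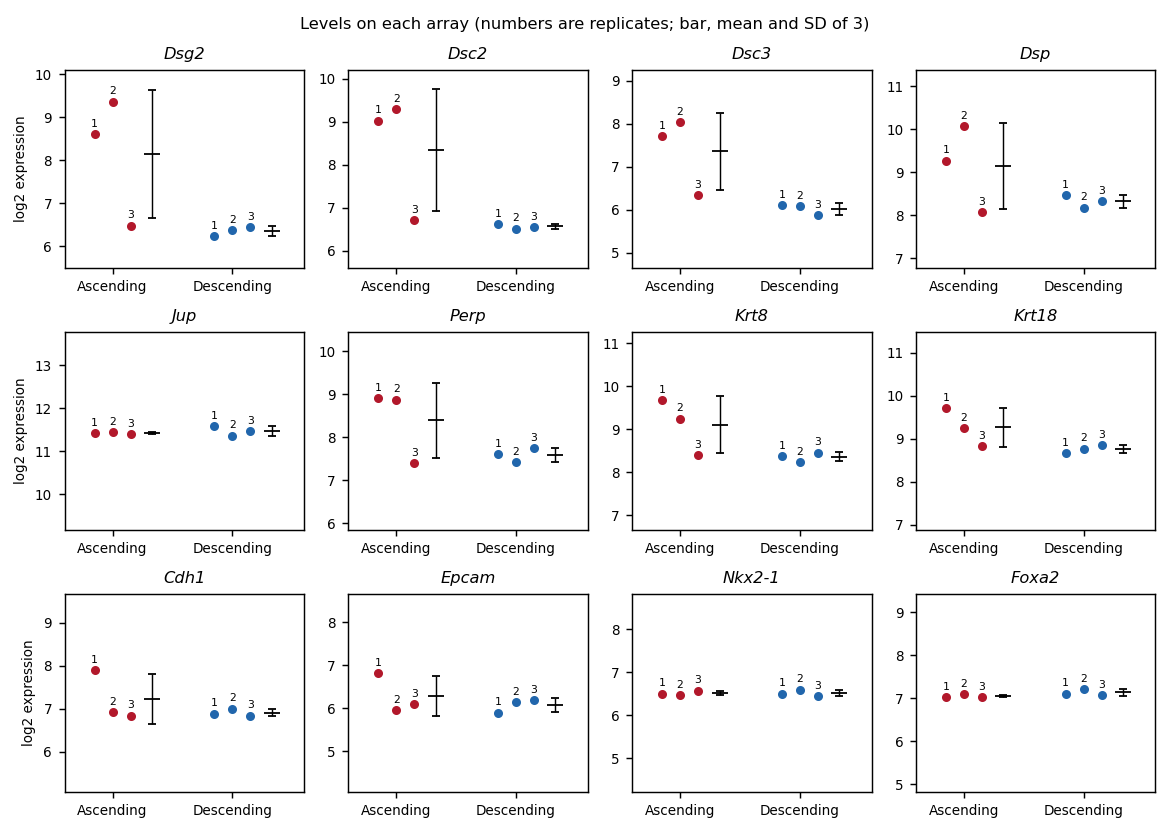
Levels of 12 of the genes on each array, as log2 expression, with ascending arrays in red and descending arrays in blue; digits are replicate numbers, bars are the mean and SD of 3, and every panel spans the same number of log2 units. Ascending replicates 1 and 2 stand above the rest for Dsg2, Dsc2, Dsc3, Dsp, Perp, Krt8 and Krt18, only replicate 1 does so for Cdh1 and Epcam, and the arrays lie level for Jup, Nkx2-1 and Foxa2.

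The 250 bases upstream of the annotated start of Dsp and Jup are shown because these plaque partners behaved differently on ascending replicates 1 and 2. Both come from RefSeq, build GRCm38.p6, and are written 5′ to 3′ on the gene's own strand: Dsp on the plus strand at chr13:38151044-38151293 and Jup on the minus strand at chr11:100397791-100398040. Capitals mark matches on either strand to any of 6 short motifs: AACCNGTT of the Grainyhead-like factors, CAGGTG of the Snail and Zeb repressors, TGANTCA of AP-1, AGATAA of the GATA factors, GGGCGG of Sp1 and TATAAA, the TATA box.
Dsp: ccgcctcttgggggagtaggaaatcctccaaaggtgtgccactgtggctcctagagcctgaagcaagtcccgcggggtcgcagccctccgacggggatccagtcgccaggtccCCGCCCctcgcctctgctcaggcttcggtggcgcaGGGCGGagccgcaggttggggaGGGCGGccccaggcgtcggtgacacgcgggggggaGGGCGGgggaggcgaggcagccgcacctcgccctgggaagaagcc
Jup: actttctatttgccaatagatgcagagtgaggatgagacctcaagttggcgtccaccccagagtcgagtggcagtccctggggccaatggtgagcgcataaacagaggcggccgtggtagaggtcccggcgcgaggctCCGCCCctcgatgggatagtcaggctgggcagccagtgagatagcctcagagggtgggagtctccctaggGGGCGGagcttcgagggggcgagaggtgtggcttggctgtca
The capitals in both are GC boxes of Sp1, 4 in Dsp and 2 in Jup, a motif that 32.74% of 32851 such windows hold. The windows are rich in G and C, at 72.4% for Dsp and 62.0% for Jup.

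The keratins of simple epithelia had larger differences than those of stratified epithelia, and no test compared the groups. Keratin 8 (Krt8, probe set 10432918) and keratin 18 (Krt18, probe set 10427075) pair to form the filaments of simple epithelia. Krt8 gave 9.68, 9.25 and 8.40 on the ascending arrays and 8.38, 8.24 and 8.46 on the descending arrays, with replicates 1 and 2 high and replicate 3 inside the descending range. The difference was 0.75 ± 0.29 (SE; adjusted p = 0.53 by limma), and without ascending replicate 3 Krt8 rose 2.15-fold (1.10 ± 0.14, adjusted p = 0.0053 by limma).

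Krt18 gave 9.71, 9.26 and 8.82 on the ascending arrays and 8.66, 8.78 and 8.86 on the descending arrays, the same order of arrays within the ascending group as for its partner. Its difference was 0.50 ± 0.20 (SE; adjusted p = 0.53 by limma), and 0.72 ± 0.14 without ascending replicate 3, where Krt18 rose 1.65-fold (adjusted p = 0.030 by limma). Krt5 and Krt14, the pair of basal cells in stratified epithelia, differed by 0.14 ± 0.083 and 0.061 ± 0.17 (SE), and the sign of Krt14 turned with array weights (-0.0074) and without ascending replicate 3 (-0.074).

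Krt8 and Krt18 had the same order of arrays within the ascending group, an order that Perp, Ppl and Cldn3 had too. The upstream windows of the pair are shown for that shared order. They lie on chromosome 15 on opposite strands, at chr15:102004343-102004592 (minus strand) and chr15:102027966-102028215 (plus strand) of GRCm38.p6, from RefSeq, with the same motifs in capitals.
Krt8: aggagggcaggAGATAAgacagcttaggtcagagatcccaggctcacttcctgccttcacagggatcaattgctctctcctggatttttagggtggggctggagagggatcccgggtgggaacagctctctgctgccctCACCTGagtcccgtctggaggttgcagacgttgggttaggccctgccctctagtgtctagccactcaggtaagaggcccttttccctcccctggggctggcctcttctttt
Krt18: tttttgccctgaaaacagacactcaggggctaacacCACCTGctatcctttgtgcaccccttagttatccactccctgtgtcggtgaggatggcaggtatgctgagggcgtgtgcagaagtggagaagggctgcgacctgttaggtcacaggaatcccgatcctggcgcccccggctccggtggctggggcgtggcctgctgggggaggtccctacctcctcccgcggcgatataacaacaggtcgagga
Each holds 1 E-box of the Snail and Zeb repressors on the minus strand, 111 bases before the start in Krt8 and 214 bases before it in Krt18, and Krt8 also holds 1 GATA motif at 239 bases. The E-box stands in 17.22% of all such windows and the GATA motif in 9.99%. Of the 38 genes, 23 had 30 windows in the table, and among those 14 windows held the E-box, 1 the Grainyhead-like motif (1.79% of all windows), 3 the AP-1 motif (6.75%), 3 the GATA motif, 21 the GC box and 3 the TATA box (12.37%). A match describes letters and not binding.

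Of the epithelial adhesion genes, Cdh1 and Epcam were high on ascending replicate 1 alone, while Cdh3 was high on replicates 1 and 2. E-cadherin (Cdh1, probe set 10575052), the adherens junction cadherin of nearly all epithelia, gave 7.90, 6.92 and 6.84 on the ascending arrays and 6.89, 7.00 and 6.84 on the descending arrays. Only ascending replicate 1 was high, and replicate 2, the highest array for Dsg2, Dsc2 and Dsc3, lay inside the descending range. Epcam (probe set 10447383), a surface protein of most epithelia, gave 6.82, 5.95 and 6.09 against 5.90, 6.14 and 6.19, again with replicate 1 alone high. The differences of 0.31 ± 0.26 and 0.21 ± 0.22 (SE; adjusted p = 0.70 and 0.76 by limma) became -0.028 and -0.053 without ascending replicate 1.

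Esrp1 (probe set 10511560), a splicing regulator of epithelial cells, gave 6.44, 5.81 and 5.64 on the ascending arrays and 5.83, 5.45 and 5.83 on the descending arrays, also with replicate 1 alone above the rest. Ascending replicate 1 was the highest of the 6 arrays by at least 0.5 for these 3 of the 38 genes, Cdh1, Epcam and Esrp1, and for 68 of all 19938 genes (0.34%). That margin was chosen after the values were seen, and Krt18 and Krt8 were highest on the same array by 0.45 and 0.44. Cldn6 also had its highest level there, at 7.11 against 6.53 to 6.81. Of 4 genes of pharyngeal pouch, thymus and parathyroid, Foxn1 and Psmb11 of thymic epithelium were highest on that array too, Foxn1 at 7.02 against 5.96 to 6.30 on the other 5. The other members were not: Pax1 gave 8.50 there against 8.96 on descending replicate 1, and Pax9 gave 7.49 against 7.56. What part another tissue on that array had in these levels was not tested.

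P-cadherin (Cdh3), a relative of E-cadherin, gave 11.82, 11.94 and 11.47 on the ascending arrays and 11.52, 11.47 and 11.45 on the descending arrays, so that replicates 1 and 2 were again the high ones. It differed by 0.26 ± 0.12 (SE; adjusted p = 0.55 by limma), and by 0.40 ± 0.09 without ascending replicate 3 (adjusted p = 0.051 by limma). Esrp2, the relative of Esrp1, and the transcription factor genes Grhl2 and Ovol1, which maintain epithelial identity, differed by 0.027, 0.096 and -0.068. The median over the 7 adhesion genes and regulators was 0.21, with 6 higher and 1 lower by their means, and it was -0.00413 without ascending replicate 1, so this median rests on that array.

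Foregut markers lay level, and all 3 had means below that of the median gene, where RMA makes differences smaller. Nkx2-1 (probe set 10400474) gave 6.50, 6.47 and 6.57 on the ascending arrays and 6.50, 6.59 and 6.45 on the descending arrays, a difference of 0.00079 ± 0.077 (SE) whose sign turned with array weights. Foxa2 (probe set 10488374) gave 7.04, 7.09 and 7.04 against 7.11, 7.22 and 7.08, a difference of -0.082 ± 0.076. Foxa1 (probe set 10400504) gave 6.62, 6.55 and 6.55 against 6.68, 6.81 and 6.66. The ascending arrays of Foxa1 lay below all the descending arrays, by a difference of -0.14 ± 0.078 (SE; adjusted p = 0.58 by limma), while those of Nkx2-1 and Foxa2 overlapped.

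The median difference was -0.082 over the 3 foregut markers and 0.14 over the 12 desmosomal genes, within which it was 1.78 over the 3 cadherins and -0.00092 over the 8 plaque genes. On ascending replicates 1 and 2, relative to the descending means, the foregut median was -0.096 and -0.046, and that of the 12 desmosomal genes was 0.35 and 0.32. Dsg2, Dsc2 and Dsc3 stood farthest from the foregut markers, with medians of 2.25 and 2.73 relative to their own descending means. A wider list of foregut and airway epithelium, which holds Shh, Sox2 and the surfactant gene Sftpc among its 10 genes, had a median difference of -0.052, with 4 higher and 6 lower by their means (5 and 5 after repeated quantile normalization). Within that list the 3 ascending arrays lay above all descending arrays for Elf3 and Spint1, by differences of 0.29 and 0.16 (5.87% of all genes). They lay below them for St14, by -0.25 (8.95% of all genes). All 10 genes of the list had means below that of the median gene. Its summed level, as the sum of unlogged values, was 934 to 977 on the ascending arrays and 967 to 1036 on the descending arrays.

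**Figure D3:**
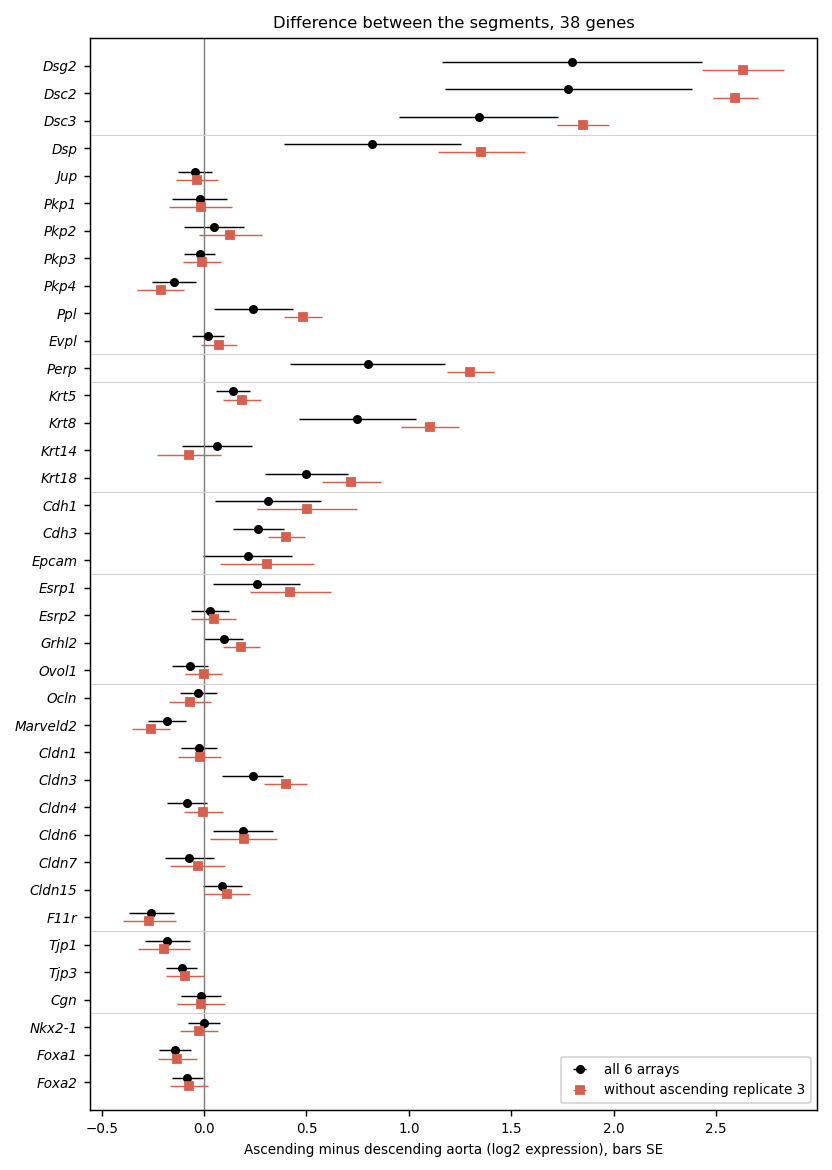
Ascending minus descending difference in log2 expression for each of the 38 genes, with SE, over all 6 arrays (black circles) and without ascending replicate 3 (red squares), in the order of the roles. The 3 desmosomal cadherins lie farthest to the right, Dsp, Perp, Krt8 and Krt18 follow, and the tight junction genes and foregut markers lie near 0.

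Tight junction genes showed small differences in both directions. Over the 12 genes the median was -0.050, with 3 higher and 9 lower by their means (4 and 8 after repeated quantile normalization), and 0.00616 was the highest median with 1 array left out. None had an unadjusted p under 0.05 over all 6 arrays. F11r (probe set 10351623), the junctional adhesion molecule A of epithelium, endothelium and platelets, gave 10.25, 10.41 and 10.36 on the ascending arrays and 10.81, 10.44 and 10.55 on the descending arrays. Its groups did not overlap, with ascending aorta lower by a narrow gap. The difference was -0.26 ± 0.11 (SE; adjusted p = 0.54 by limma).

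Among the claudins, which set the tightness and selectivity of the seal, Cldn3 differed by 0.24 ± 0.15 (SE) and gave 8.43, 8.26 and 7.85 on the ascending arrays against 8.05, 7.86 and 7.92 on the descending arrays. It was the tight junction gene with the largest difference upward, and it was not called without ascending replicate 3 (0.40 ± 0.10, adjusted p = 0.081 by limma). Cldn1, Cldn4, Cldn7 and Cldn15 differed by -0.026, -0.083, -0.073 and 0.090, and the sign of Cldn7 turned with array weights (0.045). Occludin (Ocln) differed by -0.027, and by 0.023 after repeated quantile normalization, while Marveld2, the tricellulin of junctions where 3 cells meet, differed by -0.18. The plaque genes Tjp1, Tjp3 and Cgn, which encode zonula occludens proteins and cingulin, differed by -0.18, -0.11 and -0.017.

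Wider lists of related genes were read in the same way, and limma called 0 of their genes over all 6 arrays. At an unadjusted p under 0.05 there were 2 higher and 1 lower of 22 further keratins, 0 of 17 further claudins, 2 higher and 3 lower of 22 further tight junction and polarity genes, and 1 higher and 1 lower of 18 adherens junction genes. There were also 1 higher and 2 lower of 9 further epithelial regulators and 1 lower of 6 repressors of epithelial genes. Over all genes the shares were 3.96% higher and 5.33% lower, so these counts are no result about the lists. Without ascending replicate 3, where 2.07% of all genes rose and 2.61% fell, 2 of the 22 further keratins rose and 0 fell. Keratin 7 (Krt7), of simple epithelia and mesothelium, gave 9.76, 10.03 and 9.01 on the ascending arrays and 8.17, 8.63 and 8.89 on the descending arrays, with no overlap. It differed by 1.04 ± 0.28 (SE; adjusted p = 0.53 by limma), and by 1.33 ± 0.20 without ascending replicate 3 (adjusted p = 0.0098 by limma). Keratin 19 (Krt19), of simple epithelia and mesothelium too, gave 9.90, 9.79 and 8.09 against 8.03, 8.15 and 8.20, with replicate 3 among the descending arrays. It differed by 1.13 ± 0.44 (SE; adjusted p = 0.53 by limma), and rose by 1.72 ± 0.10 without replicate 3 (adjusted p = 0.00025 by limma). Krt6a and Krt17, of stratified epithelia and skin appendages, differed by -0.21 and 0.30.

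Of 17 further claudins, 0 rose (2.07% of all genes) and 1 fell (2.61% of all genes) without ascending replicate 3. That gene was Cldn11, the claudin of myelin and Sertoli cells, which differed by -0.41 over all arrays and fell by 0.61 ± 0.12 on the log2 scale without that array (adjusted p = 0.028 by limma). Cldn5, the claudin of endothelium, differed by -0.27, Cldn12 by 0.40 and Cldn16 by -0.20 over all arrays. Of 22 further tight junction and polarity genes, 3 rose and 1 fell there. Pard6b, a polarity protein gene, gave 9.15, 9.43 and 8.38 on the ascending arrays and 7.96, 8.23 and 8.40 on the descending arrays, a difference of 0.79 ± 0.26 (SE; adjusted p = 0.53 by limma). Pard6b rose by 1.09 ± 0.15 without ascending replicate 3 (adjusted p = 0.0071 by limma). Ildr2, of tricellular junctions, differed by 0.37 over all arrays and rose by 0.51 without that array (adjusted p = 0.035 by limma), and the junctional genes Magi3 and Jam2 differed by -0.29 and -0.32. The other called genes, named after their values were seen, were Lsr and Amot. Lsr, of tricellular junctions too, differed by 0.38 over all arrays and rose by 0.61 (adjusted p = 0.012 by limma). Amot, which encodes angiomotin, gave 8.61, 8.34 and 10.03 on the ascending arrays and 9.90, 9.76 and 9.57 on the descending arrays, with replicates 1 and 2 low and replicate 3 the highest of the 6. It differed by -0.75 ± 0.40 (SE; adjusted p = 0.57 by limma) and fell by 1.27 ± 0.13 without ascending replicate 3 (adjusted p = 0.0021 by limma).

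Of 18 adherens junction genes, 1 rose (2.07% of all genes) and 1 fell (2.61% of all genes) without ascending replicate 3. Ctnnd2, a catenin best known from neurons, gave 9.32, 9.84 and 8.21 on the ascending arrays and 8.31, 8.03 and 8.28 on the descending arrays, with replicate 2 highest, as for Dsp. It differed by 0.92 ± 0.36 over all arrays (SE; adjusted p = 0.53 by limma) and rose by 1.37 ± 0.16 without replicate 3 (adjusted p = 0.0040 by limma). Cdh5, the VE-cadherin of endothelium, differed by -0.43 over all arrays and fell by 0.59 ± 0.11 without replicate 3 (adjusted p = 0.025 by limma). Nectin4 and Cdh4 differed by -0.16 and -0.23 over all arrays. Of the 5 measured desmosomal genes outside the 38, 0 were called, and Cdsn, the corneodesmosin gene of skin, differed by -0.096.

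Repressors of epithelial genes are the Zeb, Snail and Twist factors that lower Cdh1 in mesenchyme. Over all 6 arrays, 6 of 6 had lower means in ascending aorta (11211 of all 19938 genes), with a median of -0.29. The 6 of 6 held under the other scalings too. Without ascending replicate 3, the median was -0.41 and 2 of the 6 fell (2.61% of all genes). Zeb2 differed by -0.41 over all arrays and fell by 0.56 ± 0.10 without that array (adjusted p = 0.021 by limma). Twist2 gave 10.07 and 9.67 on ascending replicates 1 and 2 and 10.53, 10.78 and 10.96 on the descending arrays, and ascending replicate 3 was the highest of the 6. It differed by -0.51 ± 0.31 (SE) and fell by 0.89 ± 0.16 without replicate 3 (adjusted p = 0.022 by limma). Snai1 and Zeb1 differed by -0.39 and -0.19 over all arrays. Of 9 further epithelial regulators, 0 rose (2.07% of all genes) and 1 fell (2.61% of all genes) without ascending replicate 3. That 1 was Klf5, which differed by -0.40 over all arrays and fell by 0.54 ± 0.12 (adjusted p = 0.042 by limma). Grhl3 differed by 0.47, Elf3 by 0.29 and Klf4 by -0.35 over all arrays.

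Markers of other cell types were read on the same arrays, first of mesothelium and heart muscle, which carry desmosomes, and limma called 0 of them over all 6 arrays. At an unadjusted p under 0.05 there were 9 of 11 mesothelial and 4 of 13 cardiac markers, all higher (3.96% of all genes). Mesothelial and epicardial markers had higher means in ascending aorta in 10 of 11 genes (8727 of all 19938 genes), with a median of 0.98. Without ascending replicate 3 the median was 1.57, and 8 of the 11 rose (2.07% of all genes). Their summed unlogged level was 15367, 17067 and 8105 on ascending replicates 1, 2 and 3 and 6395 to 7780 on the descending arrays, so replicate 3 lay just above the descending range. Msln, mesothelin, gave 8.34, 8.24 and 6.51 against 6.52 to 6.83 on the descending arrays, and Upk1b gave 10.20, 10.33 and 8.00 against 7.44 to 7.67. Of the 11 genes 1, Msln, had a mean below that of the median gene, and Krt19 stands in this list and among the keratins.

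Cardiac muscle markers had higher means in 13 of 13 genes (8727 of all 19938 genes), with a median of 0.20. The median was 0.29 without ascending replicate 3, and 2 of the 13 rose, Tnnt2 and Tnni1 (2.07% of all genes). Their summed unlogged level was 8990, 11504 and 7000 on ascending replicates 1, 2 and 3 and 5153 to 6706 on the descending arrays. The troponin gene Tnnt2, with the largest difference of the list, gave 10.78, 11.49 and 8.86 against 8.74 to 9.06, with replicate 2 highest. Other members did not follow it: Myl7, of atrial muscle, was highest on replicate 3 at 9.93, and Nkx2-5 and Myh6 differed by 0.044 and 0.047. Ascending replicates 1 and 2 both lay above all descending arrays for 8 of the 13 (15.6% of all genes), and 4 of the 13 had means below that of the median gene.

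Smooth muscle markers, 3 higher and 5 lower by their means, had a median of -0.060, and summed levels of 34524, 30047 and 28300 on the ascending arrays against 29700 to 31104. Leaving out ascending replicate 3 gave a median of -0.035, and 1 of the 8 rose (2.07% of all genes). That gene was Des, whose desmin filaments also attach to desmosomes in heart muscle. Des gave 10.38, 10.82 and 8.68 on the ascending arrays and 8.50, 8.36 and 8.80 on the descending arrays, with replicates 1 and 2 high and replicate 3 inside the descending range. It differed by 1.41 ± 0.49 (SE; adjusted p = 0.53 by limma) and rose by 2.05 ± 0.17 without replicate 3 (adjusted p = 0.00087 by limma). Myh11, the smooth muscle myosin, differed by -0.53, with all ascending arrays below the descending ones. Endothelial markers had lower means in 10 of 10 genes (11211 of all 19938 genes), with summed levels of 15122, 15667 and 21858 against 22668 to 25551. Macrophage markers had lower means in 5 of 5 (11211 of all 19938 genes), with summed levels of 2793, 1668 and 4723 against 4774 to 4902. Ascending replicate 3 lay above every descending array for Cd68, Csf1r and Adgre1, and below all of them for Lyve1 and Mrc1. The median of the endothelial markers was -0.40, and -0.52 without ascending replicate 3, where 4 of the 10 fell (2.61% of all genes). The median of the macrophage markers was -0.37, and -0.71 without that array, where 3 of the 5 fell. Of the 4 measured genes of pharyngeal pouch, thymus and parathyroid, 2 were higher and 2 lower, and the summed level was 518 to 761 on the ascending and 667 to 819 on the descending arrays. Sox10 of Schwann cells and their precursors differed by -0.35. The part of these cell types in the levels of the junction genes was not tested.

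**Figure D4:**
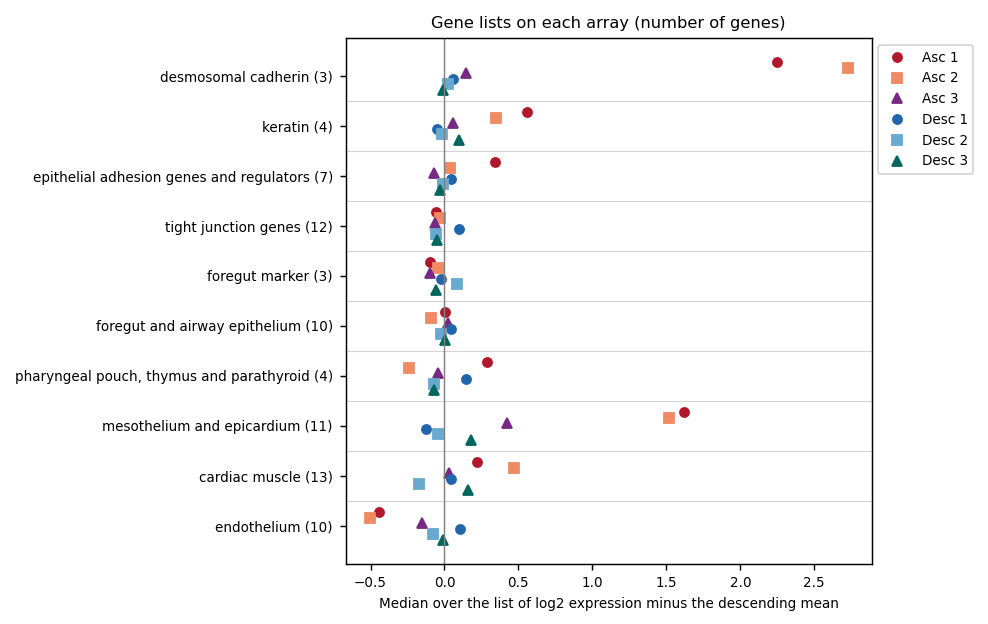
Median over each gene list of log2 expression minus the descending mean, by array; the number of genes is in brackets, and red to purple symbols are ascending and blue to green symbols descending arrays. Ascending replicates 1 and 2 lie to the right for Dsg2, Dsc2 and Dsc3, the desmosomal cadherins plotted (2.25 and 2.73). They lie to the right for the mesothelial markers too (1.62 and 1.52) and to the left for endothelium (-0.45 and -0.51). The foregut lists stay near 0 on every array.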

How the data were processed

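Sample titles gave the groups. The authors deposited log2 values per probe set; their tools were RMA and Partek 6.6, per the submitters' processing notes. The build and annotation used for the array are not given in the sources. Their range, 2.53 to 14.6, showed the scale. RMA gives the probes of all arrays 1 distribution before it combines them, so it hides shifts common to most genes. Array medians of the combined values still lay between 7.14 and 7.22.

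Of 35556 probe sets, the 21789 with exactly 1 symbol in the platform's annotation were used, and the one with the highest mean stood for a gene, which left 19938 genes. Segments were compared with limma 3.58.1 (lmFit and eBayes, R 4.3.3), ascending minus descending, two-sided, without covariates, with p-values adjusted by Benjamini-Hochberg across the 19938 genes and called under 0.05. No exact permutation test was run, since 3 against 3 arrays allow no p below 0.1. No list was tested as a set. The members, the lists and the alternatives were chosen with earlier results of these data known. Of the 38, values of every array are given for genes whose groups did not overlap, for differences of at least 0.5 and for the foregut markers, and up to 4 genes of each wider list are named by smallest unadjusted p; other genes given by array were picked after their values were seen. In simulated data with 200 of 19938 genes changed, 84.2% of changes of 1 and 96.8% of changes of 2 on the log2 scale were recovered with all 6 arrays. Without ascending replicate 3 the shares were 73.4% and 93.4%. The simulated noise was independent between arrays, so no simulated ascending array lay with the descending group as replicate 3 does. These shares therefore do not tell how many real changes the 6-array comparison would find. Tables were joined in pandas 2.3.3 under Python 3.11.15, and plots drawn with matplotlib 3.10.9.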

Additional observations from a re-analysis of the deposited data

How the results depend on the processing

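Repeated quantile normalization, median-centring, a filter that kept genes above the 50th percentile, averaging a gene's probe sets, a robust fit with a trend in the variance, array weights and the replicate block each called 0 genes. With 1 array left out in turn, between 0 and 933 of all genes and between 0 and 8 of the 38 passed, and only the comparison without ascending replicate 3 called any. Whether same-numbered arrays share embryos or a batch cannot be settled with 3 arrays per group. Deviations of same-numbered arrays correlated at -0.080, -0.055 and 0.024. The replicate block left the count at 0 genes with a lowest adjusted p of 0.60 by limma. The median of the desmosomal genes was 0.38 with the filter, which kept 4 of the 12, and 0.072 to 0.31 with 1 array left out. That of the adhesion genes and regulators ran from -0.00413 to 0.31, that of the tight junction genes from -0.0861 to 0.00616 and that of the foregut markers from -0.11 to -0.040. Signs turned for Cldn7 (0.045), Krt14 (-0.0074), Nkx2-1 (-0.00573) and Pkp1 (0.076) with array weights, and for Dsg3 (0.012), Ocln (0.023), Pkp1 (0.028) and Pkp3 (0.011) after repeated quantile normalization. The cause was not tested; each of these genes differed by at most 0.073 over all arrays. With 1 array left out, signs also turned for Cdh1 (-0.028 to 0.50), Cgn (-0.084 to 0.050), Cldn1 (-0.064 to 0.0362), Cldn7 (-0.18 to 0.0013), Dsg3 (-0.080 to 0.052), Dsg4 (-0.11 to 0.0023), Epcam (-0.053 to 0.38), Esrp2 (-0.054 to 0.082), Evpl (-0.022 to 0.071), Foxn1 (-0.045 to 0.42), Jup (-0.100 to 0.012), Krt14 (-0.074 to 0.20), Nkx2-1 (-0.033 to 0.040), Ocln (-0.072 to 0.044), Pkp1 (-0.15 to 0.061), Pkp2 (-0.068 to 0.18) and Pkp3 (-0.045 to 0.015). Signal over background limits the 27 of 38 genes with means below that of the median gene.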
